A study of Mus musculus with 10 samples.

Results

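Solute carriers are the membrane proteins that move ions, metabolites, transmitters and metals across the plasma membrane and the membranes of organelles, and they are numbered by family in the gene symbol. The set holds solute carriers detected in libraries of sorted IT-PNs (intratelencephalic projection neurons) of the mouse motor cortex, both *Fezf2+ve* and *Fezf2−ve*. Its members were selected on their level, given in CPM (the reads on a gene scaled by the reads on all genes). A gene was a member if it reached at least 10 CPM in at least 2 of the 10 libraries. *Slc1a2* and *Slc1a3* were left out of the set and are read here as astrocyte markers. Of 24453 genes in the count table, 356 had a solute carrier symbol, 256 of these had at least 1 read, and 116 were members. The other 140 genes with a read stayed under the threshold, and 100 had no read in any library. The levels that chose the members are given as a description.

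In the cortex, excitatory neurons load glutamate and zinc into synaptic vesicles with vesicular carriers, while carriers of the surrounding glia clear transmitter from the extracellular space. Cation chloride cotransporters set the chloride gradient on which GABA acts, and sodium calcium exchangers remove calcium that enters during firing. Mitochondrial carriers, which exchange ADP, phosphate and other metabolites over the inner mitochondrial membrane, are used by every cell type of the tissue.

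The libraries were made from male, hemizygous *Fezf2-Gfp* mice of a Swiss Webster background, which express GFP under *Fezf2* regulatory elements. All animals received the fluorescent retrograde tracer CTB (dye-labelled cholera toxin subunit b) in the left motor cortex at postnatal day 23 to 25, and live cells of layer 5 on the right side were sorted at postnatal day 28 to 32. Cells with GFP and tracer formed the *Fezf2+ve* type and cells with tracer alone the *Fezf2−ve* type, so that each of 5 animals gave 1 library of each type. The comparison asks which genes differ between these types of IT-PN.

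In animals 1 to 5, the *Fezf2+ve* libraries held 118134, 107643, 118069, 151591 and 203379 reads on genes, and the *Fezf2−ve* libraries 167916, 89138, 168711, 211368 and 217738. A single read was therefore worth 4.59 CPM in the deepest library, *Fezf2−ve* 5, and 11.2 CPM in the shallowest, *Fezf2−ve* 2, where 1 read alone met the threshold. Members with at least 1 read numbered 47 to 78 in the *Fezf2+ve* libraries (median 73) and 62 to 85 in the *Fezf2−ve* libraries (median 74), so that the ranges overlapped. Of the 1160 pairs of a member and a library, 447 (38.5%) had no read and 440 had 1 to 3 reads, beside 37.7% without a read among all 7409 genes that passed the same threshold. ERCC spike-in transcripts took 46.7% of the reads on genes and spike-ins in *Fezf2+ve* library 1, and between 2.79 and 27.1% in the other 9.

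The genes that should mark the sorted cells had few reads. *Fezf2* had 1 read in all, in *Fezf2+ve* library 5. *Slc17a7*, the vesicular glutamate carrier of cortical excitatory neurons and itself a member, had 0, 3, 3, 0 and 1 reads on the *Fezf2+ve* side in animals 1 to 5 and 2, 0, 2, 0 and 0 in the *Fezf2−ve* libraries. Reads on this gene were thus absent or near absent in both types. Among the 6 markers of excitatory neurons *Tbr1* had no read and *Neurod6* 2, and *Camk2a* had the most, 588, of which 529 came from *Fezf2−ve* library 3. Their summed level was 279, 92.9, 84.7, 0 and 34.4 CPM in the *Fezf2+ve* libraries and 59.6, 33.7, 3266, 33.1 and 4.59 CPM in the *Fezf2−ve* libraries. The 6 pan-neuronal markers, led by *Map2*, summed to 372, 678, 263, 356 and 63.9 CPM in *Fezf2+ve* libraries and 77.4, 112, 113, 80.4 and 59.7 CPM in *Fezf2−ve* libraries. These were higher on the *Fezf2+ve* side in each animal, although the groups overlapped. In animal 5 both types had the same reads on these markers, so the direction rests on library size there. In *Fezf2+ve* library 4 *Map2* gave 49 reads and no other of the 6 more than 3. The types are named here as the labels name them.

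Microglial markers were apart between the types. In 5 of 5 animals all 9 had the higher level on the *Fezf2−ve* side. For animals 1 to 5, their summed level was 220, 158, 67.8, 59.4 and 83.6 CPM in the *Fezf2+ve* libraries and 6182, 3893, 5921, 1367 and 3054 CPM in the *Fezf2−ve* libraries, and the groups did not overlap. *Ctss* was the most abundant of them with 817 reads, and none of the 9 was at 0 over all libraries. The 5 erythroid genes also had most of their reads, 1162 against 116, in the *Fezf2−ve* type, led by *Hbb-bs*. *Hba-a1* and *Hba-a2* are near-identical copies with equal counts. The erythroid sums were 872, 102, 16.9, 0 and 0 CPM in *Fezf2+ve* libraries and 4520, 3298, 273, 289 and 9.19 CPM in *Fezf2−ve* libraries. These groups overlapped, and *Fezf2−ve* libraries 1 and 2 stood above the rest.

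Markers of other cells overlapped between the types, and some were highest in single libraries. The 7 astrocyte markers were led by *Slc1a2*, while *Gfap* was at 0. In animals 1 to 5 they summed to 745, 7608, 644, 1682 and 462 CPM in the *Fezf2+ve* libraries. The *Fezf2−ve* libraries had 715, 236, 88.9, 3799 and 41.3 CPM, so the *Fezf2+ve* side was higher in every animal but animal 4. The 6 oligodendrocyte markers ranged from 106 to 10451 CPM and from 114 to 2025 CPM, and the 4 markers of their precursors, led by *Pdgfra*, from 72.6 to 2629 CPM and from 104 to 1116 CPM. Among the interneuron markers *Slc32a1*, *Pvalb* and *Vip* had no read, while *Gad1* had 4 reads, *Gad2* 6 and *Sst* 1. The 6 endothelial markers had 57 reads in all and the 5 of pericytes and smooth muscle had 7, with *Kcnj8*, *Acta2* and *Vtn* at 0. In these bulk samples, fewer cells of a type and less RNA per cell cannot be told apart.

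Between the types, 0 of the 116 solute carriers passed an FDR of 0.1 by edgeR when each animal was a block of the quasi-likelihood fit, beside 0 (0%) of the 7409 genes tested. The fit had little power, with a common biological coefficient of variation of 1.186, so the lack of calls does not show that levels were the same. At an unadjusted p under 0.05 there were 5 members, among them *Slc2a5*, *Slc29a3* and *Slc6a11* with more reads in the *Fezf2−ve* type and *Slc6a9* with more in the *Fezf2+ve* type. That was 4.31% of the members, near the 3.89% (288) of all tested genes. The 4 higher in the *Fezf2−ve* type stood beside 2.27% (168) of all tested genes, and the 1 higher in the *Fezf2+ve* type beside 1.62% (120). *Slc2a5*, *Slc29a3* and *Slc6a11* reached 10 CPM in no *Fezf2+ve* library, so they passed the threshold through the type in which they were higher. *Slc2a5*, *Slc6a11* and the other genes below that are outside the naming rule, such as *Slc11a1*, *Slc9a8* and *Slc23a1*, were singled out after their values had been seen. Without the animal block edgeR called 5 members, among them *Slc2a5*, *Slc6a9*, *Slc39a8* and *Slc43a2*, beside 279 (3.77%) of all tested genes. DESeq2 with the block called 3 members, among them *Slc2a5* and *Slc6a9*, beside 98 (1.32%) of all tested genes. It gave no adjusted p for many members, such as *Slc29a3*, *Slc12a2*, *Slc16a10* and *Slc35f3*, so these could not be called by it.

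The median log2 fold change of the members, *Fezf2+ve* over *Fezf2−ve*, was −0.32, with quartiles of −1.22 and 0.59 and a median standard error of 1.83. Over all tested genes the median was −0.16. With the genes that had no read in 1 type (4 members and 414 of all tested genes) set to the bound that 3 reads per library allow, the medians were −0.17 and −0.02. Without any other scaling than library size the medians were −0.36 and −0.19, and with RLE size factors −0.34 and −0.21. A total of 18 members (15.5%) reached 10 CPM in *Fezf2−ve* libraries alone, beside 15.8% (1168) of all tested genes, and 3 members (2.59%) in *Fezf2+ve* libraries alone, beside 4.29% (318). These passed the threshold through 1 type.

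Direction within each animal separated few members. In 5 of 5 animals 3 members, among them *Slc16a10* and *Slc35f3*, had the higher level on the *Fezf2+ve* side, which was 2.59% of the members beside 1.62% (120) of all tested genes. *Slc29a3*, *Slc12a2* and *Slc25a3* had it on the *Fezf2−ve* side in 5 of 5, again 2.59% of the members, beside 2.60% (193) of all tested genes. The named ones are described below with their roles, and each had an adjusted p of at least 0.998 by edgeR.

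**Figure D1:**
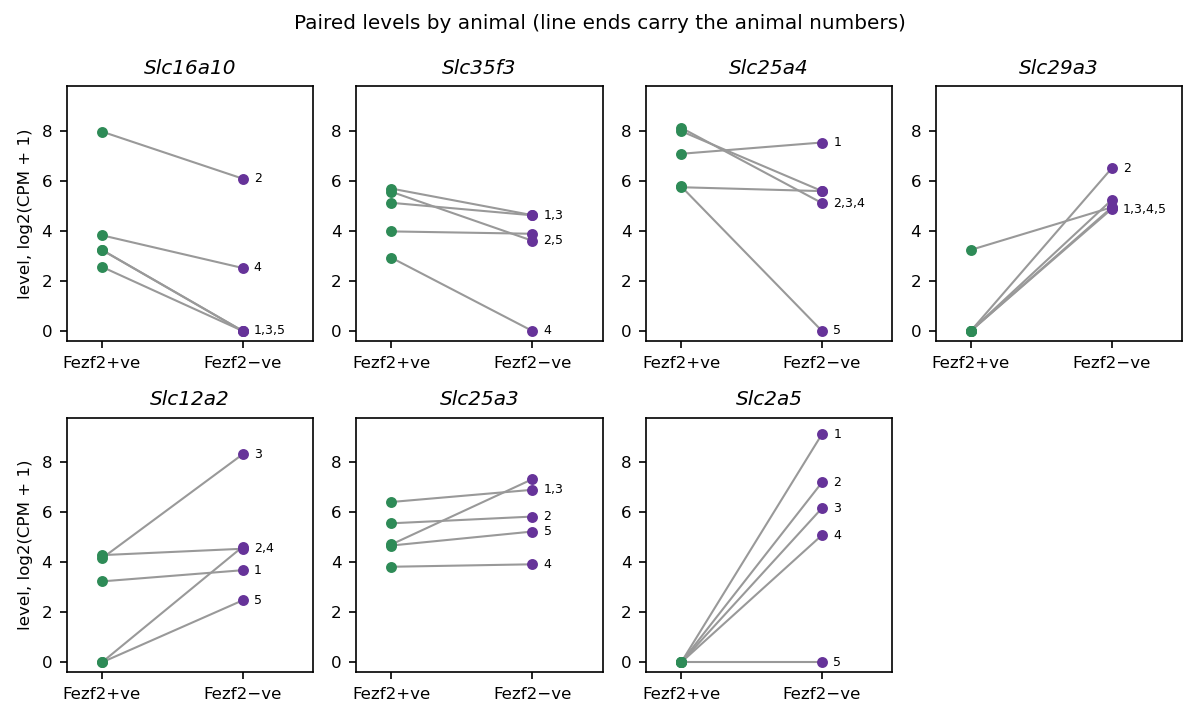
Levels of 7 solute carriers as log2(CPM + 1) in the *Fezf2+ve* (green, left) and *Fezf2−ve* (purple, right) libraries of each animal, with a line for each of 5 animals and the animal numbers at the right. *Slc29a3* had at most 1 read in each *Fezf2+ve* library and 5 to 8 in each *Fezf2−ve* library, whereas the lines of *Slc25a4* cross.

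Many members had most of their reads in a single library. In 47 members (40.5%) more than 50% of the reads came from 1 library, beside 44.3% of all tested genes, and in 12 members (10.3%) more than 90%, beside 7.45%. Only 19 pairs of a member and a library held more than 100 reads, and these 19 held 75.6% of the 16886 reads on members, beside 81.2% in such pairs for all tested genes. At the other end, 49 members had fewer than 20 reads in all.

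Presence was as uneven as level. A read was found in all 10 libraries for 11 members, in 9 for another 11, and in 5 or fewer for 46. The 11 found everywhere included *Slc25a3*, *Slc1a1*, *Slc35e2*, *Slc9a8*, *Slc8a1*, *Slc23a2*, *Slc35f1*, *Slc9a7*, *Slc44a5* and *Slc24a2*. They cover transmitter uptake, calcium exchange, proton exchange, a mitochondrial carrier and vitamin transport, and they made up 9.48% of the members beside 12.3% of all tested genes.

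**Figure D2:**
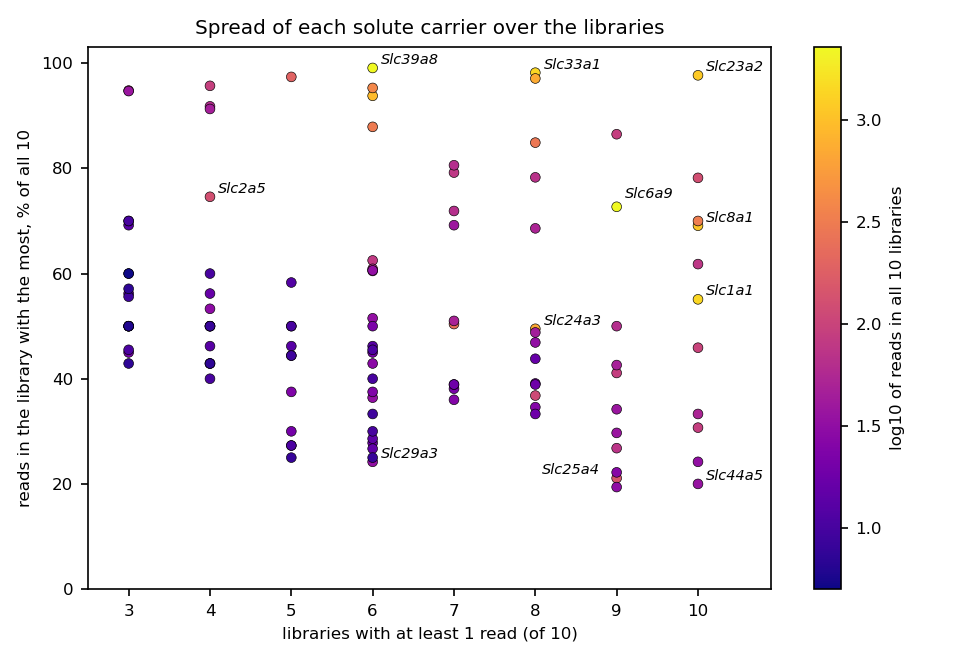
Each point is 1 of the 116 solute carriers, placed by the number of libraries with at least 1 read and by the percentage of its reads that came from its richest library, with the colour giving the log10 of its reads in all 10 libraries. Some members with many reads lie near the top, such as *Slc39a8* with 99.1% in 1 library. *Slc1a1* with 1384 reads lies in the middle at 55.1%, and *Slc29a3* with 24.2% lies low.

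As a share of all gene reads, the members took 0.755, 1.41, 0.240, 0.310 and 2.02% on the *Fezf2+ve* side in animals 1 to 5 and 1.13, 0.275, 2.80, 0.782 and 0.507% in the *Fezf2−ve* libraries. The medians were 0.755 and 0.782% (n = 5 each). High and low libraries occurred in both types and the ranges overlapped. A single gene held up to 81.8% of these reads, as *Slc33a1* did in *Fezf2−ve* library 4. Leaving out the richest member of each library brought the range over all libraries to between 0.0871 and 1.49%.

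**Figure D3:**
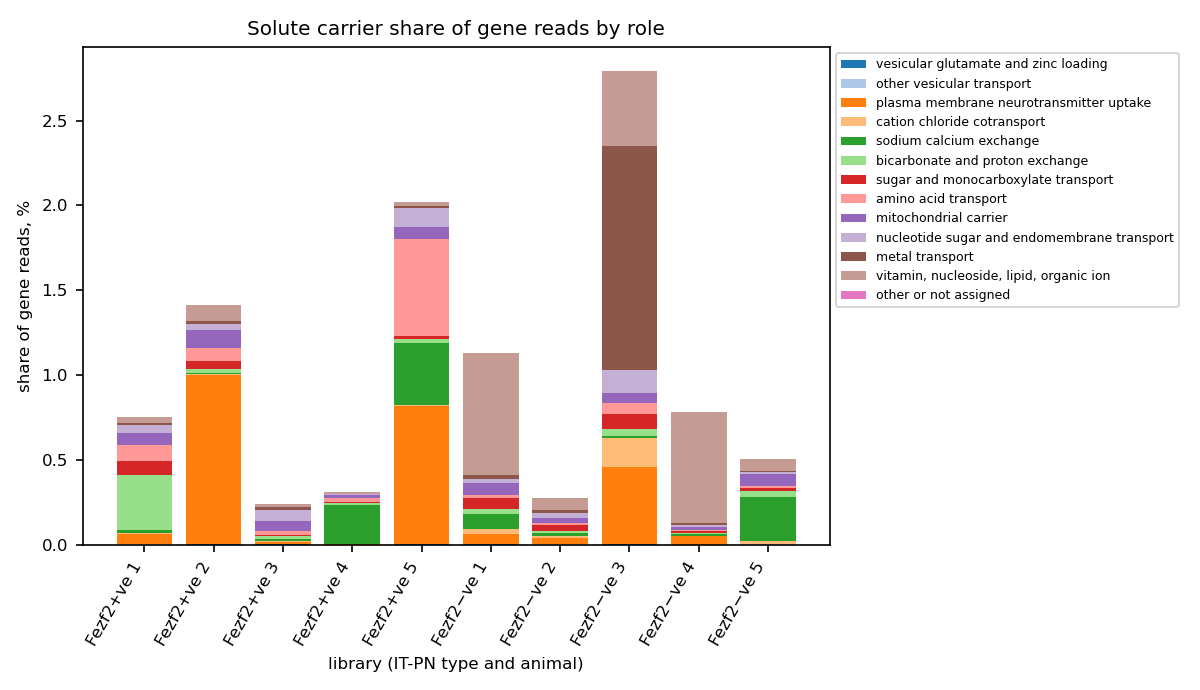
Stacked bars give the percentage of gene reads on the 116 solute carriers in each library, split by role, with the *Fezf2+ve* libraries on the left and the *Fezf2−ve* libraries on the right. The tallest bar is *Fezf2−ve* library 3 at 2.80%, of which metal transport, that is *Slc39a8*, is the largest piece.

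Carriers that fill synaptic vesicles were close to absent. Apart from *Slc17a7*, the glutamate carrier *Slc17a6* had 1 read and *Slc17a8* none, the vesicular zinc carrier *Slc30a3* had 6 reads, and the GABA carrier *Slc32a1* had none. At the depth of these libraries no read allows up to 3, which is 13.8 to 33.7 CPM, for counting error alone. Among the 7 vesicular carriers that load neither glutamate nor zinc, *Slc32a1* included, *Slc17a5*, the lysosomal sialic acid carrier, was the single member. It had 15 reads, in 3 libraries of each type.

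Uptake of transmitter over the plasma membrane had 6 members among 17 genes and 22.7% of all member reads. *Slc6a9*, the glycine transporter GLYT1, had the highest mean CPM of the members. Its reads in animals 1 to 5 were 8, 597, 4, 1 and 1648 in the *Fezf2+ve* libraries and 3, 2, 0, 3 and 1 in the *Fezf2−ve* libraries. The *Fezf2+ve* libraries of animals 2 and 5 were high, the other 3 held 6.60 to 67.7 CPM, and the *Fezf2−ve* libraries up to 22.4 CPM, so that the groups overlapped. Its log2 fold change was 4.99 ± 2.22 (SE), and 4 of 5 animals had the higher CPM on the *Fezf2+ve* side. Leaving out each animal gave 3.14 to 6.84, and leaving out the block 7.78. Its adjusted p was 0.998 by edgeR with the block, 0.0931 without it and 0.0351 by DESeq2 with it, and over all alternatives the adjusted p ran from 0.0351 to 1.00.

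The neuronal glutamate transporter *Slc1a1* had 18, 472, 5, 2 and 1 reads in *Fezf2+ve* libraries and 84, 27, 762, 9 and 4 in the *Fezf2−ve* libraries. The highest library of each type came from a different animal, and the groups overlapped over nearly their whole range.

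*Slc6a11*, the GABA transporter GAT3 of astrocytes, had 1 read in the *Fezf2+ve* libraries, in animal 4, and 1, 2, 0, 88 and 0 reads in the *Fezf2−ve* libraries. *Fezf2−ve* library 4 therefore gave all but 4 of the 92. There the summed astrocyte markers were also at their *Fezf2−ve* maximum of 3799 CPM. Of that sum *Slc1a2* gave 791 reads, and no other astrocyte marker had more than 4 there. *Fezf2+ve* library 2 had 7608 CPM of these markers and no *Slc6a11* read. The part of these markers in the value was not tested. The log2 fold change of *Slc6a11* was −4.45 ± 1.96 (SE). The ratio of pooled CPM, *Fezf2−ve* over *Fezf2+ve*, was 74.4, with an exact 95% interval for counting error of 13.0 to 2970. Both rest on *Fezf2−ve* library 4, since without animal 4 the reads were 3 against 0, and no fold change was fitted.

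Among the cation chloride cotransporters, 4 of 9 genes were members. *Slc12a2*, the chloride importer NKCC1, had 1, 2, 2, 0 and 0 reads in *Fezf2+ve* libraries and 2, 2, 54, 5 and 1 in the *Fezf2−ve* libraries. Each animal had the higher CPM on the *Fezf2−ve* side, with *Fezf2−ve* library 3 holding 78.3% of the reads and the remaining libraries overlapping. In animal 2 both types had 2 reads, so the direction rests on library size there. The fit gave a log2 fold change of −2.31 ± 1.43 (SE). *Slc12a5*, the chloride extruder KCC2 of mature neurons, was not a member: *Fezf2+ve* library 2 held 461 of the 465 reads, and no other library had more than 1.

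Sodium calcium exchange had 4 members of 9 genes, none of them with an unadjusted p under 0.05. The exchanger *Slc8a1* (NCX1) was found everywhere, with 14, 5, 5, 5 and 743 reads in the *Fezf2+ve* libraries and 35, 11, 15, 10 and 233 in the *Fezf2−ve* libraries. Animal 5 was highest in both types, and in the other 4 animals the *Fezf2−ve* library was the higher one. *Slc24a3*, a potassium-dependent exchanger, had 1, 0, 2, 338 and 5 reads against 3, 2, 0, 4 and 328. A single library of each type thus held nearly all of its reads, from different animals.

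*Slc24a2*, a related exchanger of neurons, had 10, 1, 3, 1 and 1 reads in *Fezf2+ve* libraries and 97, 1, 3, 2 and 5 in the *Fezf2−ve* libraries, with animal 1 highest in both types. *Slc8a3* had 10 reads in 4 libraries. *Slc8a2*, the exchanger NCX2 of forebrain neurons, had 22 of its 23 reads in *Fezf2+ve* library 1 and was not a member.

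**Figure D4:**
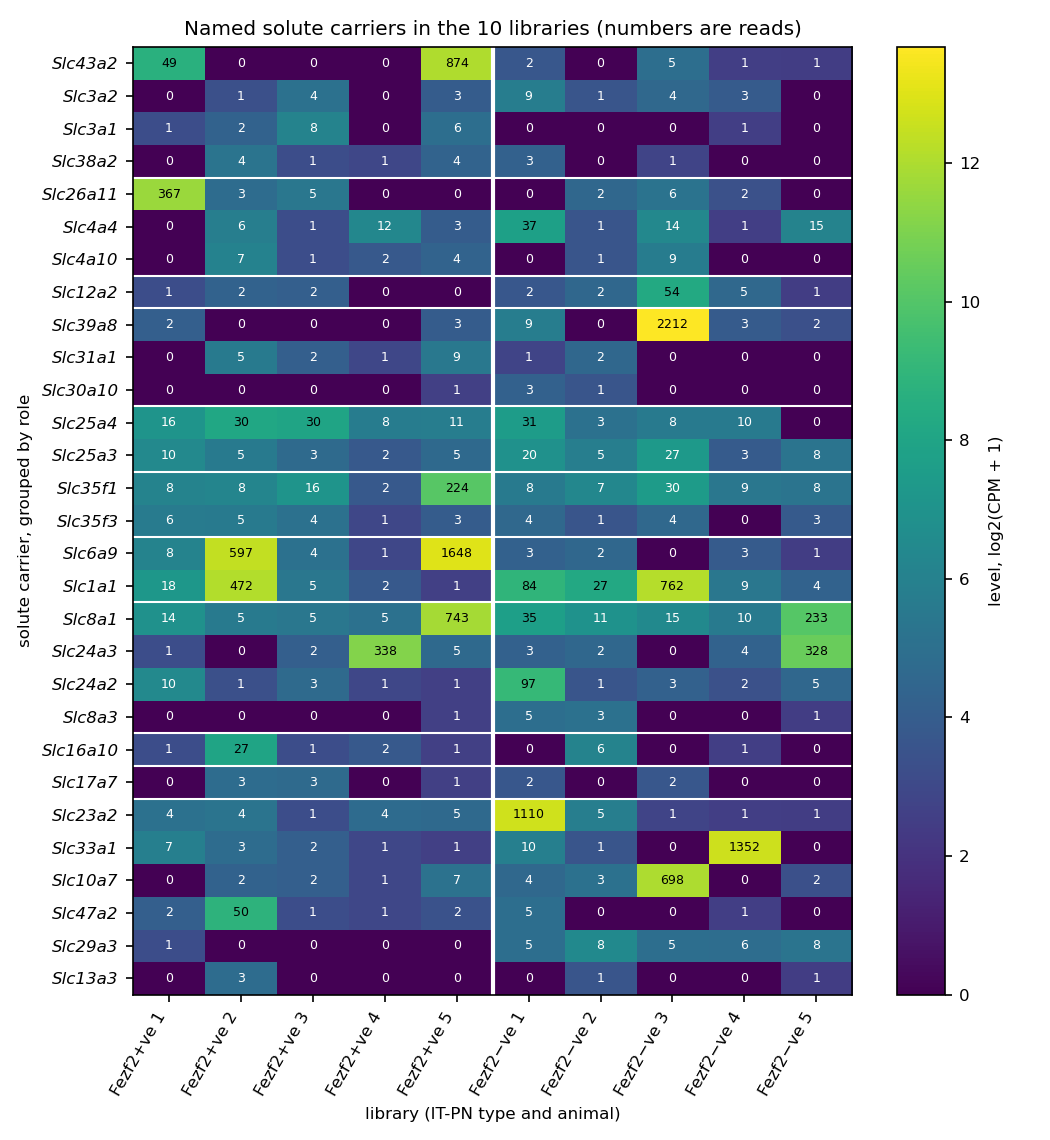
Levels as log2(CPM + 1) of named solute carriers that were members, in rows grouped by role, across the 5 *Fezf2+ve* libraries (left of the white line) and the 5 *Fezf2−ve* libraries (right), with the reads printed in each field. Bright fields stand alone in many rows, such as 2212 reads of *Slc39a8* in *Fezf2−ve* library 3 and 1352 of *Slc33a1* in *Fezf2−ve* library 4.

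Bicarbonate and proton exchange had 9 members of 30 genes. *Slc26a11*, an anion exchanger of the sulfate transporter family, had 367 of its 385 reads in *Fezf2+ve* library 1 and at most 6 in any other library. The sodium bicarbonate cotransporter *Slc4a4*, typical of astrocytes, had 0, 6, 1, 12 and 3 reads in *Fezf2+ve* libraries and 37, 1, 14, 1 and 15 in the *Fezf2−ve* libraries, in which the groups overlapped. *Slc4a10*, its neuronal relative, had 0, 7, 1, 2 and 4 reads against 0, 1, 9, 0 and 0, with 4 libraries of 1 type and 2 of the other showing any. The evenest of the group was the Golgi proton exchanger *Slc9a8*, with 1 to 8 reads in each of the 10 libraries.

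Sugar and monocarboxylate transport had 11 members of 33 genes, and 4 main glucose and lactate carriers of the brain were not among them. The glucose transporters *Slc2a1* of the blood-brain barrier and *Slc2a3* of neurons had 1 and 2 reads, and the lactate transporters *Slc16a1* and *Slc16a7* had 6 and 2. *Slc16a10*, which carries aromatic amino acids, had 1, 27, 1, 2 and 1 reads in *Fezf2+ve* libraries and 0, 6, 0, 1 and 0 in the *Fezf2−ve* libraries. The *Fezf2+ve* side had the higher CPM in each animal, but animal 2 gave 33 of the 39 reads, and the groups overlapped. The fit gave a log2 fold change of 2.21 ± 1.27 (SE).

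*Slc2a5*, the fructose transporter that microglia express in the brain, had no read in any *Fezf2+ve* library and 94, 13, 12, 7 and 0 reads on the *Fezf2−ve* side in animals 1 to 5. The groups met at 0 in animal 5, and in the other 4 animals the *Fezf2−ve* library was the higher. Its mean of 162 CPM in the *Fezf2−ve* libraries was at least 7.15-fold higher than the mean floor of 22.6 CPM that 3 reads per library give in the *Fezf2+ve* libraries. *Fezf2−ve* library 1 held 74.6% of its reads, and without animal 1 the bound was 2.85-fold. The adjusted p was 0.998 by edgeR with the block, 0.0931 without it and 0.0814 by DESeq2, and ran from 0.0814 to 1.00 over all alternatives.

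*Slc29a3*, a nucleoside transporter of lysosomes that is also typical of microglia, had 1, 0, 0, 0 and 0 reads in *Fezf2+ve* libraries and 5, 8, 5, 6 and 8 in the *Fezf2−ve* libraries. The groups did not overlap, and unlike most members its reads were spread over the libraries of the type, with 24.2% in the richest. The ratio of pooled CPM, *Fezf2−ve* over *Fezf2+ve*, was 26.2, with an exact 95% interval for counting error of 4.37 to 1065. The fitted log2 fold change was −4.26 ± 1.61 (SE), and it ran from −5.77 without animal 1 to −3.91 without animal 2. The adjusted p was 0.998 by edgeR and ran from 0.106 to 1.00 over the edgeR alternatives, while DESeq2 gave none for this gene.

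Of the 8 solute carriers listed as typical of microglia, 5 were members, and 2 of them, *Slc2a5* and *Slc29a3*, had an unadjusted p under 0.05, beside 3.89% of all tested genes. As said, both entered the test through the *Fezf2−ve* type. *Slc11a1*, the metal transporter of phagosomes, had no read in the *Fezf2+ve* libraries and 0, 3, 5, 3 and 0 in the *Fezf2−ve* libraries, which is under the floor on average. *Slc15a3*, a peptide and histidine transporter of lysosomes, had 3 reads against 13, and *Slc37a2*, a sugar phosphate transporter, 3 against 5. The others had 0 to 2 reads. Together the 8 genes summed to 8.46, 46.4, 0, 0 and 19.7 CPM in the *Fezf2+ve* libraries and to 601, 314, 148, 75.7 and 82.7 CPM in the *Fezf2−ve* libraries. The 2 ranges did not overlap, as those of the 9 microglial markers did not. The part of microglial RNA in these values was not tested.

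**Figure D5:**
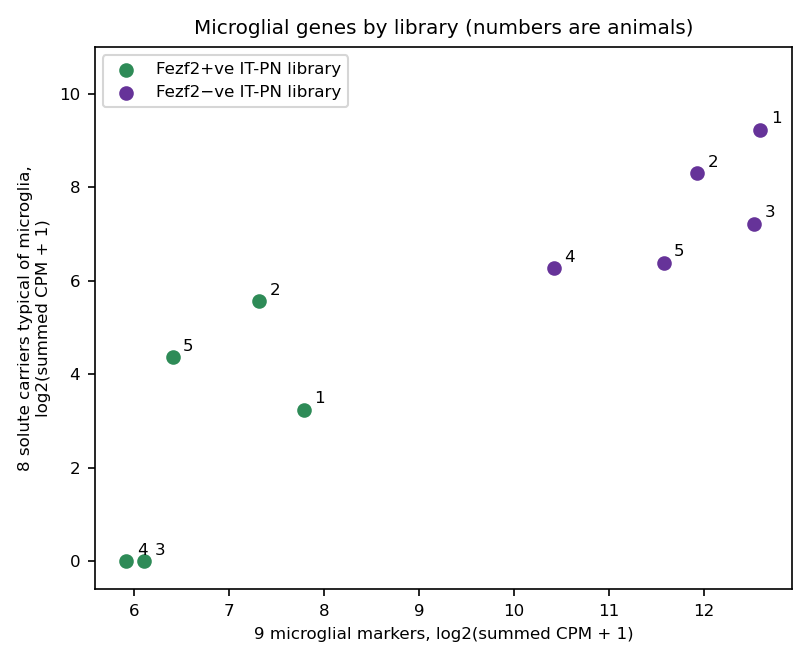
Each point is 1 library, with the summed level of 9 microglial markers on the horizontal axis and that of 8 solute carriers typical of microglia on the vertical axis, both as log2(summed CPM + 1), and numbers giving the animal. The *Fezf2−ve* libraries (purple) lie above and to the right of all *Fezf2+ve* libraries (green), from 75.7 CPM upward against at most 46.4 CPM for the solute carriers.

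The promoters of the microglial members are shown because the list of 8 genes to which they belong had 188 reads in the *Fezf2−ve* and 10 in the *Fezf2+ve* type. RefSeq sequences (GRCm38.p6) were at hand for 96 of the 116 members, and among the 5 microglial ones for *Slc2a5*, *Slc11a1*, *Slc37a2* and *Slc29a3*. They cover the bases from 250 to 71 before the start used for these sequences, 5′ to 3′ on the gene's strand: chr4:150119094-150119273 (plus strand), chr1:74374953-74375132 (plus), chr9:37255809-37255988 (minus) and chr10:60752853-60753032 (minus). Counted from the GENCODE vM21 gene positions, the windows of *Slc2a5*, *Slc11a1* and *Slc29a3* lie closer to the start. Capitals mark GAGGAA, the core letters bound by PU.1, an ETS factor of myeloid cells, on either strand (TTCCTC when read on the other).
Slc2a5: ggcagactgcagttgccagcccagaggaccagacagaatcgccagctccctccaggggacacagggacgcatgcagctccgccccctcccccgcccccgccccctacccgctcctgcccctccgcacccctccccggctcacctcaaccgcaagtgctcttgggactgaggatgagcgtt
Slc11a1: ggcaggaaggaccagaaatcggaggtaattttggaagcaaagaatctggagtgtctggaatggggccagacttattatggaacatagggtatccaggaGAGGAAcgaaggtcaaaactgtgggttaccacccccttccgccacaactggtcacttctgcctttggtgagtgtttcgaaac
Slc37a2: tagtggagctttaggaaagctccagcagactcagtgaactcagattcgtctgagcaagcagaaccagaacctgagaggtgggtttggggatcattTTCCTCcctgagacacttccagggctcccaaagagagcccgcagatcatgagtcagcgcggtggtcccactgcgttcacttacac
Slc29a3: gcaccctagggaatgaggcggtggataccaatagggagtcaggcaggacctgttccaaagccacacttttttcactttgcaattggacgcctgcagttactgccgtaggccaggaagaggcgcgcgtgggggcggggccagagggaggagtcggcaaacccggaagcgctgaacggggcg
The motif stood 1 time each in the windows of *Slc11a1* and *Slc37a2*, and these letters were not in the windows of *Slc2a5* and *Slc29a3*. It was found in 17.2% of all 32851 promoter windows of this length and in 18 of the 115 windows (15.7%) that belong to members.

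Amino acid transport had 15 members of 44 genes. *Slc43a2*, a transporter of large neutral amino acids, had 49, 0, 0, 0 and 874 reads in *Fezf2+ve* libraries and 2, 0, 5, 1 and 1 in the *Fezf2−ve* libraries. It was high in the *Fezf2+ve* libraries of animals 1 and 5 and at 0 in the other 3. Its log2 fold change was 2.77 ± 3.06 (SE), and it became −0.07 without animal 1 and −0.10 without animal 5. Its adjusted p was 0.0931 without the block and ran up to 1.00 over the alternatives.

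*Slc3a2*, the heavy chain shared by several transporters, had 0, 1, 4, 0 and 3 reads in *Fezf2+ve* libraries against 9, 1, 4, 3 and 0, with both types spanning 0. The glutamine transporters *Slc38a2* and *Slc38a1*, which feed the glutamate cycle of neurons, had 14 and 3 reads, the latter under the threshold. *Slc3a1*, the heavy chain of the cystine transporter, had 17 reads in 4 of the *Fezf2+ve* libraries and 1 read in the *Fezf2−ve* libraries.

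Mitochondrial carriers formed the second largest group, with 19 members of 47 genes. *Slc25a4*, the ADP/ATP carrier of heart, muscle and brain, had 16, 30, 30, 8 and 11 reads in *Fezf2+ve* libraries and 31, 3, 8, 10 and 0 in the *Fezf2−ve* libraries. The *Fezf2+ve* side had the higher CPM in 4 of 5 animals, and the groups overlapped. The phosphate carrier *Slc25a3* had 10, 5, 3, 2 and 5 reads against 20, 5, 27, 3 and 8, with the higher CPM on the *Fezf2−ve* side in each animal. In animal 2 both types had 5 reads, so the direction rests on library size there. Its log2 fold change was −0.75 ± 1.00 (SE), less than its error. No mitochondrial carrier had an unadjusted p under 0.05. Reads of *Slc25a3*, *Slc25a4* and the related *Slc25a5* are uncertain as far as copies of these genes share sequence.

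The Slc35 family, which brings nucleotide sugars into the Golgi and endoplasmic reticulum and also holds carriers of unknown substrate, had 12 members of 27 genes. *Slc35f1*, of unknown substrate, had 8, 8, 16, 2 and 224 reads in *Fezf2+ve* libraries and 8, 7, 30, 9 and 8 in the *Fezf2−ve* libraries. *Fezf2+ve* library 5 stood above the rest, and the types otherwise overlapped. Its relative *Slc35f3* had 6, 5, 4, 1 and 3 reads against 4, 1, 4, 0 and 3, with the higher CPM on the *Fezf2+ve* side in every animal. In animals 3 and 5 both types had the same reads, worth 33.9 and 23.7 CPM in animal 3 and 14.8 and 13.8 CPM in animal 5, so this direction rests on library size there. A log2 fold change of 1.14 ± 1.09 (SE) was fitted. The 51 reads of *Slc35e2* are uncertain, since it overlaps *Gm16023* on the other strand over 15041 bases and the counts of both were equal in 7 libraries.

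Metal transport had 13 members of 32 genes. The zinc and manganese transporter *Slc39a8* had 2, 0, 0, 0 and 3 reads in *Fezf2+ve* libraries and 9, 0, 2212, 3 and 2 in the *Fezf2−ve* libraries. *Fezf2−ve* library 3 stood far above the rest, and the types overlapped. The log2 fold change was −2.70 ± 2.12 (SE) with the block and −8.09 without it, and leaving out each animal gave −5.20 to −1.11. The adjusted p by edgeR was 0.0931 without the block and ran from 0.0931 to 1.00 over the alternatives. *Slc39a8* is also typical of brain endothelium, whose 6 markers summed to 17.8 CPM in that library, within the range of 8.46 to 74.3 CPM over all 10. The part of endothelial RNA in the value was not tested.

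Carriers of vitamins, nucleosides, phosphate, lipids and organic ions made up the largest group, with 20 members of 76 genes and 22.3% of member reads. The ascorbate transporter *Slc23a2* had 1110 of its 1136 reads in *Fezf2−ve* library 1 and 1 to 5 in each of the other 9. *Slc33a1*, the acetyl-CoA transporter of the endoplasmic reticulum, had 1352 of 1377 reads in *Fezf2−ve* library 4, and *Slc10a7*, of the bile acid cotransporter family, 698 of 719 in *Fezf2−ve* library 3. Each of these 3 thus owed its place among the most-read members to 1 library. *Slc44a5*, a relative of the choline transporters, was even, with 1 to 7 reads in each library.

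A second ascorbate transporter, *Slc23a1*, had 10, 5, 3, 0 and 5 reads in *Fezf2+ve* libraries and 19, 4, 6, 4 and 15 in the *Fezf2−ve* libraries. The neighbour *Paip2* overlaps it on the other strand over 2584 bases and had 10, 7, 3, 2 and 7 reads against 24, 4, 6, 6 and 15, equal in 5 libraries. Reads of the 2 genes cannot be told apart, since it is not known whether the counting kept to 1 strand. In all, 26 members overlap another gene of the table by their positions in GENCODE vM21 (GRCm38).

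The pattern of *Slc6a9* over the 10 libraries was most like those of *Slc31a1*, *Slc47a2* and *Slc3a1*, with Pearson correlations of log2(CPM + 1) of 0.71, 0.70 and 0.70 and Spearman correlations of 0.69, 0.71 and 0.78. The points share their library depth, and *Slc31a1* and *Slc3a1* had 20 and 18 reads in all. At the threshold, *Slc13a3* and *Slc30a10* were just inside with a second highest level of 11.2 CPM, and *Slc16a1* and *Slc27a1* just outside with 9.83 CPM. The inner value is 1 read in *Fezf2−ve* library 2 and the outer value 2 reads in *Fezf2+ve* library 5. *Slc13a3*, *Slc30a10* and *Slc35e3* were members through that single read.

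Other lists of solute carriers were set by cell type. Of the 10 typical of astrocytes 7 were members, and 1 of them, *Slc6a11*, had an unadjusted p under 0.05, beside 3.89% of all tested genes. Of the 10 typical of brain endothelium 2 were members, of the 6 typical of oligodendrocytes 3, of the 4 typical of interneurons 2, and of the 11 typical of excitatory cortical neurons 5, none with such a p. The excitatory list had 1343 reads in the *Fezf2+ve* and 1318 in the *Fezf2−ve* type, of which *Slc1a1* alone had 1384. The 6 typical of oligodendrocytes summed to 8.46, 55.7, 42.3, 0 and 49.2 CPM in *Fezf2+ve* libraries and 89.3, 146, 344, 33.1 and 138 CPM in *Fezf2−ve* libraries. Each animal had the higher sum on the *Fezf2−ve* side, and the groups overlapped. Different genes gave most of these sums: *Slc12a2* 320 CPM in *Fezf2−ve* library 3, *Slc25a13* 119 CPM in library 5 and *Slc44a1* 112 CPM in library 2. The 6 oligodendrocyte markers had 1371 reads in the *Fezf2+ve* and 543 in the *Fezf2−ve* type, with most of the former in *Fezf2+ve* library 2. Their sums were 779, 10451, 559, 106 and 354 CPM in *Fezf2+ve* libraries and 2025, 617, 391, 114 and 266 CPM in *Fezf2−ve* libraries. The *Fezf2+ve* side had the higher sum in animals 2, 3 and 5 alone.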

How the data were processed

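RNA-seq counts of 10 libraries, 5 of each type, were analysed. Per the labels and the study's methods, reads were demultiplexed and trimmed, the authors used TopHat2 2.1.1 for mapping to mm10 or the ERCC sequences, and they made the deposited counts with BEDTools 2.26.0 multiCov on RefFlat genes, without normalization. Strand use and the handling of duplicates are not given in the sources used here. The libraries were PCR-amplified and carry no molecular identifiers, so intervals and floors cover counting error only. Their reads are biased to the 3′ end by the study's methods, so levels were not divided by gene length. The table of the authors' DESeq2 1.10.1 comparison holds means, fold changes, standard errors, statistics and p-values, and was not used.

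The 7409 genes that reached 10 CPM in 2 or more libraries were fitted with edgeR 4.0.16 in R 4.3.3 by TMM and the quasi-likelihood F test, with the animal as a block, a Benjamini-Hochberg adjustment over all of them and an FDR of 0.1. Libraries of the same number come from the same animal by the labels and methods; their deviations from the type means correlated by 0.0283 on average (−0.0297 to 0.0966). The SE of an edgeR log2 fold change was derived as its absolute value divided by the square root of its F statistic. It is approximate and can become very large where F is small. Python 3.11.15, numpy 2.4.6, pandas 2.3.3, scipy 1.17.1 and matplotlib 3.10.9 were used for the rest. Alternatives were no block, DESeq2 1.42.0 with the block, other scalings, filters and membership thresholds, and leaving out each animal. The legacy form in edgeR of the quasi-likelihood test, shares without the richest member of each library and the bound of *Slc2a5* without each animal were chosen after seeing the data.

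Named were the 12 members with the highest mean CPM; up to 6 members in each direction with the smallest p among those that differed the same way in 5 of 5 animals (log2 of CPM + 1), of which there were 3 each; 23 textbook genes of the roles; 2 genes on each side of the threshold; and the 3 members most like the one with the highest mean CPM. The members, the lists of roles and markers and this rule were chosen with earlier results of these data known. Some genes that this rule names are not reported here.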

Additional observations from a re-analysis of the deposited data

Results flagged for a closer look

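In 11 of 38 sets of 5 libraries of a type, 1 library lay far from the other 4, where chance gives about 1 in 20. That rate holds for normally distributed values and not for 1 read beside 0 or for skewed sums. The ERCC share of *Fezf2+ve* library 1 was 46.7%, next to 12.6%. Summed astrocyte markers reached 7608 CPM in *Fezf2+ve* library 2, next to 1682 CPM, and 3799 CPM in *Fezf2−ve* library 4, next to 715 CPM. Oligodendrocyte markers reached 10451 CPM in *Fezf2+ve* library 2, next to 779 CPM, and 2025 CPM in *Fezf2−ve* library 1, next to 617 CPM. Excitatory markers reached 3266 CPM in *Fezf2−ve* library 3, next to 59.6 CPM.

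Single genes stood apart on the scale of log2(CPM + 1). *Slc16a10* was at 7.98 in *Fezf2+ve* library 2, next to 3.83. *Slc29a3* was at 3.24 in *Fezf2+ve* library 1, which is 1 read, with the other 4 at 0.00, and at 6.50 in *Fezf2−ve* library 2, next to 5.24. *Slc6a11* was at 2.93 in *Fezf2+ve* library 4, also 1 read, with the other 4 at 0.00. *Slc35f3* was at 0.00 in *Fezf2−ve* library 4, next to 3.61.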

How the results depend on the processing

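Without the animal block, 279 of all tested genes and 5 solute carriers were called. In that fit 23 of the 116 solute carriers had an unadjusted p under 0.05, beside 1345 of all 7409 tested genes. DESeq2 with the block called 98 genes and 3 solute carriers. Every other alternative of the fit called 0 by edgeR, with 175 to 345 genes and 2 to 7 solute carriers at an unadjusted p under 0.05. Leaving out each animal gave 2 to 7 such solute carriers, with 3 without animals 1, 2 and 5, and 2 without animal 3. The cause was not tested. The median log2 fold change of the solute carriers was negative in all fits, from −0.58 without animal 2 to −0.08 without animal 1. There were 178 members at a threshold of 5 CPM, 84 at 20 CPM and 83 at 10 CPM in 3 libraries.

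Of 113 fold changes of 10 genes under the alternatives, 2 changed sign, both of *Slc43a2*, at −0.07 without animal 1 and −0.10 without animal 5, within a range of −0.10 to 4.87 when each animal was left out. Over the alternatives in which each was fitted, the log2 fold change of *Slc6a9* ran from 3.14 to 7.78, that of *Slc39a8* from −8.09 to −1.11 and that of *Slc6a11* from −5.70 to −2.35. *Slc6a11* was not fitted without animals 2 or 4 or with the filter of 5 libraries, and animal 4 holds nearly all of its reads. For *Slc12a2* it ran from −3.08 to −1.61 and for *Slc25a3* from −0.96 to −0.35. Among these genes calls were gained 6 times: without the block for *Slc2a5*, *Slc6a9*, *Slc39a8* and *Slc43a2*, and by DESeq2 for the first 2. The lower bound of the fold of *Slc2a5* was 2.85 without animal 1 and ran up to 8.41 when each of the others was left out; the cause was not tested. The mean share of reads on solute carriers stayed between 0.560 and 1.12% in the *Fezf2+ve* type and between 0.540 and 1.30% in the *Fezf2−ve* type. Depth limits most single values: of 1160 pairs of a member and a library, 447 had no read and 440 had 1 to 3 reads.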
